A study of Mus musculus with 19 samples.

Results

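The genes described here are the FGF receptors Fgfr1, Fgfr2 and Fgfr3, the ligands Fgf9 and Fgf15, and 5 genes of the feedback on the pathway or of its transcriptional output, Spry1, Spry2, Spred1, Etv5 and Dusp6. They were picked by name, as the rows of the RNA-seq count tables whose Ensembl identifiers carry these symbols in the GRCm38 annotation. The tables list 47069 genes, all 10 members were found among them, and all 10 passed the filter on low counts. The study compared the transcriptome of retinal ganglion cells (RGCs), the neurons that send axons from the eye to the brain, according to whether the axon stays on its own side of the brain (ipsilateral, iRGCs) or crosses the midline (contralateral, cRGCs). Mouse retinas were taken at embryonic stage E16.5 from embryos of strain C57/DBA F1, male and female pooled, with a genotype otherwise labelled WT. Embryos of both groups carried a CAG-[Stop]-Sun1-GFP cassette in the Rosa26 locus, which makes a nuclear envelope protein fused to GFP in cells where Cre recombinase has acted and in their descendants. For iRGCs, Cre came from a Slc6a4-Cre (Sert-Cre) transgene, driven by the gene of the serotonin transporter. For cRGCs, Cre came from the Pou4f2 (Brn3b) locus, which is active in most RGCs, and the ventrotemporal (VT) part of the retina, where iRGCs lie, was cut away beforehand. GFP-positive cells were freed with collagenase and trypsin and sorted by flow cytometry, and their polyA RNA was sequenced, with 3 libraries of each population. ATAC-seq samples from the same study were left aside and not analysed here. The driver line and the dissection thus differ together with the population, and their parts in any difference cannot be told apart. The labels do not say whether the 3 libraries of a population came from separate litters, so the p-values measure the spread between these libraries.

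The libraries were similar in depth, with 28193178 to 33638083 counted reads each. Genes with a count numbered 16564, 19323 and 20283 in iRGC 1, 2 and 3, and 17831, 19279 and 19145 in cRGC 1, 2 and 3. Reads on no annotated gene made up 12.3% of the uniquely aligned reads in iRGC 3 and 18.4% to 23.2% in the other libraries. Transcript levels are given as CPM, which are counts scaled to a common library total, with TMM normalization factors that take most genes as equal between libraries. A gene is called higher or lower when its adjusted p, from the quasi-likelihood test of edgeR and adjusted by the Benjamini-Hochberg method over all 15941 genes tested, is under 0.1, and is a DEG when its log2 fold change also exceeds 1 in size. Fold changes are iRGC over cRGC throughout, and SE is an approximate standard error on the log2 scale. It was taken as the size of the log2 fold change over the square root of the F statistic of the test.

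The labels were checked first. Slc6a4, whose promoter drives Cre in the iRGC line, was at 2.06, 33.4 and 116 CPM in the libraries labelled iRGC 1, 2 and 3, and at 48.1, 35.4 and 30.5 CPM in cRGC 1, 2 and 3. The populations overlapped for this gene, iRGC 1 lay below all cRGC libraries, and the log2 fold change of 0.41 (SE 0.929) had an edgeR adjusted p of 0.768. Zic2, the transcription factor of iRGCs, was at 134, 173 and 157 CPM in iRGCs against 57.0, 60.2 and 65.7 CPM in cRGCs. Isl2, a factor of cRGCs, was lower in iRGCs with a log2 fold change of -2.15 (SE 0.337, edgeR adjusted p = 0.00117). Zic2 and Isl2 thus separated all 3 libraries of a group from those of the other, and Slc6a4 did not. The log2 fold change of Zic2 was 1.34, beside a median of 2.38 for the progenitor markers described below. That of Isl2 stood beside a median of -1.94 for general RGC markers. Whether Zic2 and Isl2 separated the libraries by the side of projection or by such shifts was not tested. The 10 calls below held with each of the 6 libraries left out in turn, the library labelled iRGC 1 included.

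Genes used as markers of retinal progenitors were also higher in the sorted iRGCs, and whether they came from progenitors or from young iRGCs that transcribe them cannot be told apart here. Lhx2, Sox2 and Sox9, used here as such markers, are reported by the study as expressed in iRGCs. Of 13 progenitor markers, such as Rax and Sox2, 12 were higher in iRGCs, beside 23.3% of all tested genes. Vim was not past the threshold, and the median log2 fold change of these markers was 2.38. Their summed level was 4923, 4846 and 4436 CPM in iRGC 1, 2 and 3 and 939, 1475 and 1371 CPM in cRGC 1, 2 and 3, and the most abundant of them was Dkk3. In the same libraries 9 of 10 RGC markers were called lower in iRGCs, beside 23.1% of all tested genes. The median of this list was -1.94 on the log2 scale. The remaining marker, Thy1, went in the same direction at -2.06 but was uncalled (edgeR adjusted p = 0.121). Its libraries overlapped, at 6.2, 1.3 and 13.8 CPM in iRGCs and 46.5, 39.1 and 3.2 CPM in cRGCs. The summed RGC markers reached 2091, 2908 and 4615 CPM in iRGC 1, 2 and 3 and 11840, 10780 and 13010 CPM in cRGC 1, 2 and 3. The defining markers of the labelled cell type were thus present in both populations. In bulk libraries fewer cells of a type and less RNA per cell cannot be told apart, and the part of these markers' cells in the differences given here was not tested.

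FGFs are secreted proteins that bind receptor tyrosine kinases of the FGFR family, and the active receptor recruits adaptors that switch on Ras and the kinases RAF, MEK and ERK. ERK raises transcription of the ETS factors of the Etv1, Etv4 and Etv5 group and of its own inhibitors, among them the Sprouty and Spred proteins, which act between receptor and RAF, and Dusp6, a phosphatase of ERK. In the developing eye the pathway is known for its roles in specifying neural retina, in the spread of neurogenesis and in keeping progenitors dividing, and receptors on RGC axons take part in their growth.

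All 10 genes were transcribed at a higher level in iRGCs than in cRGCs. The largest differences were those of Fgf15, Fgfr2, Spry1, Fgfr3 and Etv5, with 4.46-fold to 6.64-fold more transcript in iRGCs, and the smallest was that of Fgf9 at 1.5-fold. In each of the 10 genes the lowest iRGC library lay above the highest cRGC library. Beside these 10 of 10, 23.3% of all tested genes were called higher in iRGCs, and in 27.1% all iRGC libraries lay above all cRGC libraries. The members were chosen with earlier results of these data known, so these counts are a description and not a test. Every member but Fgf9 and Spred1 was a DEG, 8 of 10, against 12.1% of all tested genes in that direction. Fgfr1 lay at the edge of the fold change threshold, with a log2 fold change of 1.01, and was at 0.90 without iRGC 2 and 0.99 without cRGC 1. Spred1 was at 1.01 without normalization factors. The median log2 fold change was 1.82 over the 10 members and -0.0031 over all tested genes. Without normalization factors that second median moved to 0.20, and all 10 members were still called higher.

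**Figure D1:**
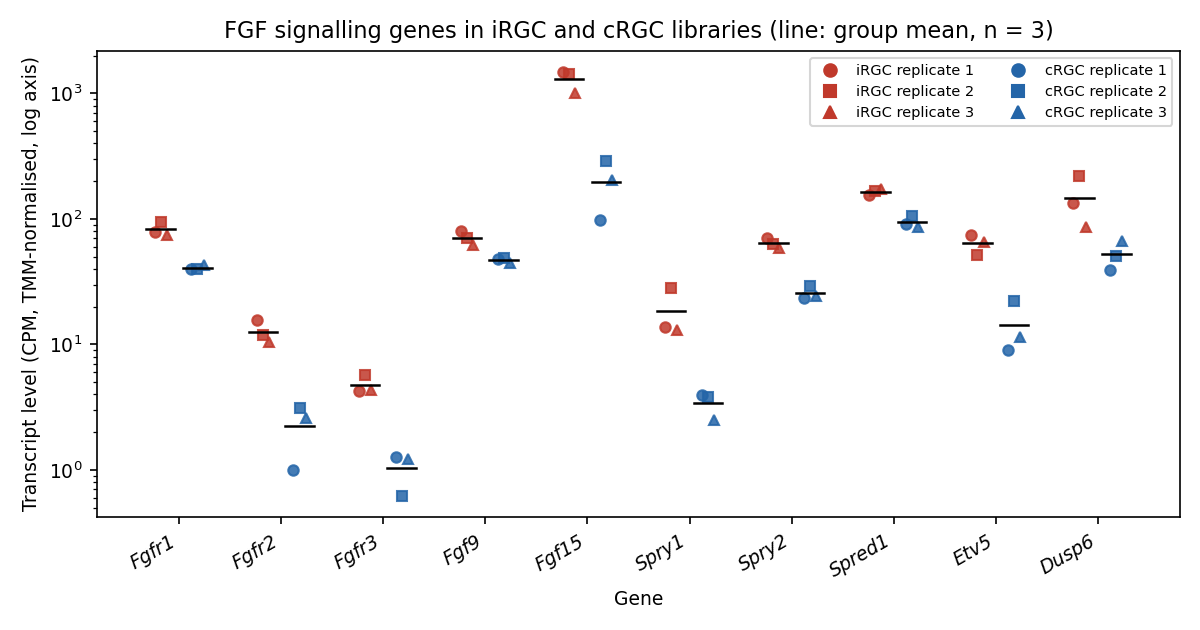
Transcript level of each of the 10 genes in every library, in CPM on a log axis, with iRGC libraries in red, cRGC libraries in blue and a line at the mean of 3. For each gene the 3 iRGC points lie above the 3 cRGC points. The groups come near each other in Fgf9, from 61.5 CPM in iRGC 3 to 48.7 in cRGC 2, and in Dusp6, from 86.1 CPM in iRGC 3 to 66.8 in cRGC 3.

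Among the ligands, Fgf15 was the most abundant member in both populations and had the largest fold change. This gene, the mouse counterpart of human FGF19, lies on chromosome 7 at 144896531-144900953 of GRCm38 and is known in the embryonic retina as a product of progenitors. It was at 1484, 1442 and 1001 CPM in iRGC 1, 2 and 3, and at 98.8, 289 and 203 CPM in cRGC 1, 2 and 3. The populations were far apart, and cRGC 1, the cRGC library with the lowest summed progenitor markers, was also the lowest for Fgf15. The mean of 1309 ± 268 CPM in iRGCs (SD, n = 3) was 6.64-fold that of cRGCs, with a log2 fold change of 2.73 (SE 0.352, edgeR adjusted p = 0.000479). About 25.7% of its exon sequence is shared with the predicted genes Gm26793 and Gm39119, of which the first, on the opposite strand, had 21 to 114 counts per library against 2570 to 46658 for Fgf15. The strand setting of the counting is not given in the sources used here, so reads of overlapping genes on opposite strands may not be separated.

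Fgf9, a ligand made by the neural retina and by RGCs themselves, moved far less. It was at 80.4, 70.8 and 61.5 CPM in iRGCs and at 48.4, 48.7 and 44.7 CPM in cRGCs (chromosome 14, 58070547-58112720). The cRGC libraries were close together and all iRGC libraries lay above them, but the difference was the smallest of the 10 members, with a log2 fold change of 0.58 (SE 0.132, edgeR adjusted p = 0.00731). The ratio of Fgf15 to Fgf9 within a library, which does not depend on the scaling between libraries, shows the contrast between the ligands. Per kilobase of exon and on the log2 scale it was 4.81, 4.95 and 4.63 in iRGCs and 1.63, 3.17 and 2.79 in cRGCs. The difference of 2.27 exceeded the pooled SD of 0.58 between libraries, and the exact permutation p of 0.1, two-sided, is the smallest that 3 libraries against 3 can give (0.133 after adjustment over 4 ratios).

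The other 16 secreted ligands were mostly rare. Of the 9 tested, Fgf2 and Fgf3 were called higher in iRGCs, a share near the 23.3% of all tested genes, none was called lower, beside 23.1%, and 7 were not past the threshold. Another 7 did not pass the filter on low counts, of which Fgf6 and Fgf21 had no counts in any library. The uncalled ligands had log2 fold changes from -2.48 to 3.23 with wide errors. Fgf3, a close neighbour of Fgf15 on the chromosome, was at 95.9, 78.1 and 52.9 CPM in iRGCs and 6.77, 19.2 and 12.8 CPM in cRGCs (log2 fold change 2.55, SE 0.364, edgeR adjusted p = 0.000749). Fgf2 was at 2.44, 4.36 and 1.89 CPM in iRGCs and 0, 0.656 and 0.194 CPM in cRGCs, with a log2 fold change of 3.33 (SE 1.2, edgeR adjusted p = 0.0537). The Fgf2 call was lost without iRGC 2 (edgeR adjusted p = 0.171) or without cRGC 3 (0.156), over a range of 0.00436 to 0.171 among the alternatives, and its log2 fold change was 4.82 without cRGC 2. Fgf8, the ligand of the early optic stalk, stood at 1.22, 0.896 and 1.83 CPM in iRGCs and 0.384, 0.0345 and 0 CPM in cRGCs and was not past the threshold (edgeR adjusted p = 0.11), and it was picked after its values were seen.

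Of the summed level per kilobase of the 18 secreted ligands, Fgf15 made up 88.7%, 89.8% and 89.3% in iRGC 1, 2 and 3, and 64.0%, 81.0% and 78.1% in cRGC 1, 2 and 3. Fgf9 made up 3.16%, 2.90% and 3.61% in iRGCs and 20.6%, 8.98% and 11.3% in cRGCs. The share of Fgf3 overlapped between the populations, from 6.20% to 7.54% in iRGCs and from 5.76% to 7.08% in cRGCs. The ligand transcripts of the iRGC libraries were thus more dominated by Fgf15, and those of the cRGC libraries held a larger share of Fgf9.

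Fgf3 and Fgf15 share a short stretch of chromosome 7 with Fgf4, LTO1 and Ccnd1, and these 5 protein-coding genes fall within 101843 bases. Fgf3, Fgf15 and Ccnd1, the cyclin D1 gene that drives entry into the cell cycle, differed by similar amounts, with log2 fold changes of 2.55, 2.73 and 2.48. Fgf4 had at most 56 counts in a library and was not tested. LTO1, which overlaps the end of Ccnd1 on the opposite strand, had 800 to 1511 counts in iRGCs and 1110 to 1329 in cRGCs, and its log2 fold change of -0.25 (SE 0.203, edgeR adjusted p = 0.378) was not past the threshold. About 23.4% of the exon sequence of Ccnd1 is shared with other genes, so reads may not be separated between Ccnd1 and LTO1.

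The intracellular FGF homologous factors carry the family name but are not secreted, and bind voltage-gated sodium channels in neurons. None was called higher, and 3 of 4 were lower in iRGCs. Fgf12 had 16.4, 19.6 and 41.2 CPM in iRGCs and 130, 126 and 96.3 CPM in cRGCs (log2 fold change -2.19, SE 0.324, edgeR adjusted p = 0.000872). Fgf11 and Fgf13 were lower with log2 fold changes of -0.79 and -0.55. Fgf14 was not past the threshold (-0.25, edgeR adjusted p = 0.575, from 0.0616 to 0.929 among the alternatives) but was called lower without cRGC 1, at -0.56. For comparison, 23.1% of all tested genes were called lower in iRGCs.

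Fgfr1 was the most abundant of Fgfr1, Fgfr2 and Fgfr3 in both populations and was 2.02-fold higher in iRGCs. It was at 78.3, 94.2 and 74.8 CPM in iRGC 1, 2 and 3 and at 40.0, 39.9 and 42.8 CPM in cRGC 1, 2 and 3 (chromosome 8, 25513654-25575718). The cRGC libraries were nearly equal and the populations did not overlap, with a log2 fold change of 1.01 (SE 0.128, edgeR adjusted p = 0.000456). The means were 82.4 ± 10.3 and 40.9 ± 1.67 CPM (SD, n = 3), from 1040 to 3048 counts per library.

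Fgfr2 and Fgfr3, receptors known from dividing neuroepithelium and glia, were rarer and differed more. Fgfr2 was at 15.6, 11.9 and 10.5 CPM in iRGCs and at 1.00, 3.14 and 2.58 CPM in cRGCs, where cRGC 1 was the lowest with 26 counts. Its log2 fold change was 2.49 (SE 0.439, edgeR adjusted p = 0.00207). In the annotation the gene spans 130162451-133123350 of chromosome 7, and 3.04% of its exon sequence is shared with Ctbp2 on the same strand, which had 1664 to 4356 counts per library. Fgfr3 was at 4.25, 5.72 and 4.35 CPM in iRGCs and at 1.27, 0.621 and 1.23 CPM in cRGCs (chromosome 5, 33721674-33737068), and the groups did not overlap. With 18 to 38 counts per cRGC library it was the least deeply counted member, and its log2 fold change of 2.20 (SE 0.528, edgeR adjusted p = 0.00983) had the largest error of the 10. In the annotation, G630022F23Rik on the opposite strand shares 13.9% of the exon sequence of Fgfr3 and had 0 to 3 counts per library. Its adjusted p reached 0.0456 without iRGC 2, the highest of any member in any of the 15 alternative fits.

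The mixture of receptors differed as well. Per kilobase of exon, Fgfr1 made up 79.0%, 83.0% and 82.4% of the 3 receptors in iRGC 1, 2 and 3, and 93.7%, 91.2% and 91.1% in cRGC 1, 2 and 3. Fgfr2 made up 15.1%, 10.1% and 11.0% in iRGCs and 2.24%, 6.86% and 5.25% in cRGCs. Fgfr3 made up 5.91%, 6.95% and 6.61% in iRGCs and 4.10%, 1.96% and 3.60% in cRGCs. Each receptor's share was thus apart between the populations in all 6 libraries. The mean share of Fgfr1 was lower in iRGCs by 10.5 percentage points, from 92.0 ± 1.44% to 81.5 ± 2.15% (SD, n = 3), while Fgfr2 was higher by 7.27 points and Fgfr3 by 3.27 points. The exact permutation test gave p = 0.1 for each, the smallest possible here, and 0.1 after adjustment over the 3 receptors.

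**Figure D2:**
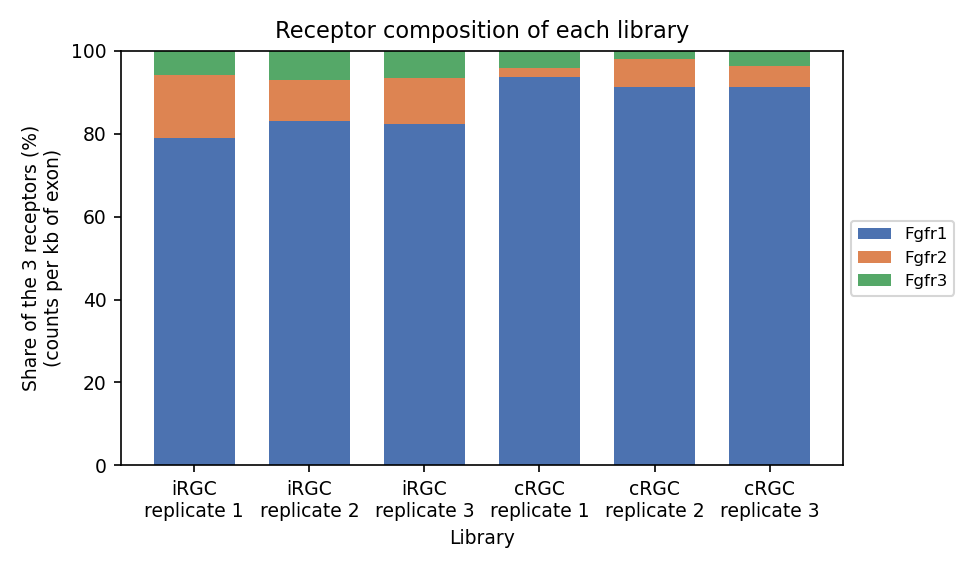
Share of Fgfr1, Fgfr2 and Fgfr3 in their summed counts per kilobase of exon, in percent, as 1 stacked bar per library. Fgfr1 takes 79.0% to 83.0% of the bar in the 3 iRGC libraries and 91.1% to 93.7% in the 3 cRGC libraries.

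Of the other receptors and coreceptors, both tested genes were higher in iRGCs, beside 23.3% of all tested genes. Fgfrl1, a receptor-like protein without a kinase domain, was at 30.6, 36.8 and 26.9 CPM in iRGCs and 3.54, 9.11 and 7.75 CPM in cRGCs (log2 fold change 2.21, SE 0.332, edgeR adjusted p = 0.000957). Fgfr4 was at 1.77, 2.97 and 3.15 CPM in iRGCs and 0.50, 0.828 and 0.613 CPM in cRGCs (log2 fold change 2.02, SE 0.692, edgeR adjusted p = 0.0452). The Fgfr4 call was lost without iRGC 2, iRGC 3, cRGC 1 or cRGC 3, without the low-count filter and with a replicate block, with adjusted p from 0.00562 to 0.146 among the alternatives. The coreceptors Kl and Klb, used by hormone-like FGFs, had too few counts to be tested: Kl had 10 at most in any library, and Klb had 0 in each iRGC library and 9 to 16 in the cRGC libraries.

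Adaptors inside the cell were called in both directions. Of 11 adaptors 3 were higher, beside 23.3% of all tested genes, 5 were lower, beside 23.1%, and 3 were not past the threshold, and the median log2 fold change was -0.17. Gab1, the docking protein that links FGF receptors to PI3K, was at 74.2, 75.6 and 83.6 CPM in iRGCs and 43.6, 43.0 and 45.3 CPM in cRGCs (log2 fold change 0.82, SE 0.112, edgeR adjusted p = 0.000606). Its relative Gab2 went the other way, with 38.8, 53.4 and 63.3 CPM in iRGCs and 167, 134 and 138 CPM in cRGCs (log2 fold change -1.50, SE 0.184, edgeR adjusted p = 0.00040). Ptpn11, the phosphatase SHP2 that acts with Gab1, was higher by 0.33, and the Ras exchange factor Sos2 by 0.32. The Sos2 call was lost without iRGC 2 (edgeR adjusted p = 0.115) or cRGC 3 (0.144), in a range from 0.00484 to 0.144. Frs3, an adaptor that binds the receptor directly, was lower with a log2 fold change of -1.02, Grb2, which brings Sos proteins to it, with -0.81, and Plcg1, the phospholipase of the parallel calcium branch, with -0.45.

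In the Ras and ERK cascade none of 14 genes was called higher, 4 were lower and 10 were not past the threshold, beside 23.3% higher and 23.1% lower of all tested genes. The 10 had log2 fold changes from -0.23 to 0.26. The scaffold gene Ksr2 had the largest difference of this list, with 12.0, 18.0 and 19.8 CPM in iRGCs and 66.6, 48.7 and 57.7 CPM in cRGCs (log2 fold change -1.80, SE 0.214, edgeR adjusted p = 0.000353). Hras (-0.70) and Mapk3 (-0.65), which encodes ERK1, were lower by less.

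**Figure D3:**
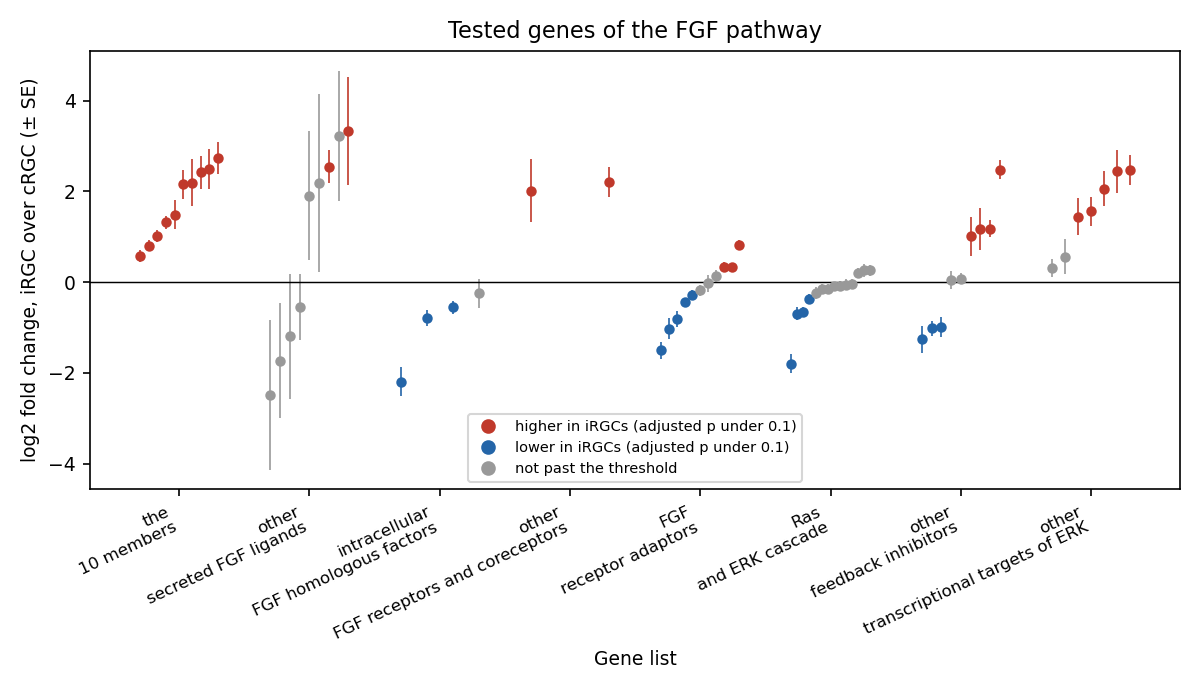
Log2 fold change, iRGC over cRGC, with its SE for each tested gene of the 10 members and of 7 further lists of the FGF pathway, sorted within a list. Red points were called higher in iRGCs, blue points lower, and grey points did not pass an adjusted p of 0.1; the 10 members are red, while the Ras and ERK cascade has 4 blue and 10 grey points.

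The inhibitors Spry1, Spry2 and Spred1 were higher in iRGCs, Spry1 by the largest fold of the 3. Spry1 was at 13.9, 28.0 and 13.1 CPM in iRGC 1, 2 and 3 and at 3.96, 3.83 and 2.49 CPM in cRGC 1, 2 and 3 (chromosome 3, 37639947-37644598). The iRGC 2 library stood well above the other iRGC libraries, and all 3 lay above the cRGCs. The fold was 5.36, with a log2 fold change of 2.42 (SE 0.371, edgeR adjusted p = 0.00103) that became 1.98 without iRGC 2. In the annotation 24.4% of its exon sequence is shared with Gm42922 on the opposite strand, which had 0 to 40 counts per library.

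Spry2 was more abundant than Spry1 and varied less between libraries. It was at 70.6, 63.4 and 58.2 CPM in iRGCs and at 23.3, 29.0 and 24.3 CPM in cRGCs (chromosome 14, 105891947-105896819). The log2 fold change was 1.33 (SE 0.144, edgeR adjusted p = 0.000258), and this was the lowest adjusted p of the 10 members. Spred1, a Ras inhibitor that recruits neurofibromin, was at 155, 166 and 174 CPM in iRGCs and at 91.6, 106 and 85.7 CPM in cRGCs (chromosome 2, 117121374-117182279). Its groups were apart but closer, with a log2 fold change of 0.81 (SE 0.115, edgeR adjusted p = 0.000742).

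The 3 inhibitors therefore differed unequally, and ratios within a library show it without any scaling. Per kilobase the log2 ratio of Spry1 to Spry2 was -2.82, -1.65 and -2.63 in iRGCs and -3.04, -3.40 and -3.77 in cRGCs, higher in iRGCs by 1.03 on average and by 0.67 without iRGC 2. The log2 ratio of Spred1 to Spry2 was -0.57, -0.32 and -0.12 in iRGCs and 0.27, 0.16 and 0.12 in cRGCs, a difference of -0.52. Neither ratio overlapped between the populations, and each had an exact permutation p of 0.1 (0.133 adjusted over 4 ratios).

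Dusp6, which removes phosphate from ERK, was higher in iRGCs but varied widely among their libraries. It was at 133, 222 and 86.1 CPM in iRGC 1, 2 and 3 and at 39.4, 51.0 and 66.8 CPM in cRGC 1, 2 and 3 (chromosome 10, 99263231-99267489). The iRGC 2 library was the highest and iRGC 3 came near the cRGCs. The mean of 147 ± 68.9 CPM (SD, n = 3) against 52.4 ± 13.7 CPM gave a log2 fold change of 1.49 (SE 0.325, edgeR adjusted p = 0.00616), which was 1.06 without iRGC 2 and 1.75 without iRGC 3.

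The promoters of the members were searched for letters that ETS factors such as Etv5 are known to bind, since these genes were higher together. RefSeq promoter windows of GRCm38.p6, from 250 bases before to 50 after a transcription start, were at hand for 8 of the 10 members, in 10 windows. Those of Fgfr1 and Fgf15 were not used here. The longer motif ACCGGAAG, on either strand, was in 0 of 10 member windows and in 2.3% of all 32851 windows. Its core CCGGAA, which the longer motif contains, was in 1 of 10 member windows, that of Spry2, and in 14.9% of all windows. The windows of the feedback genes Spry2 (minus strand, chr14:105896770-105897069) and Dusp6 (plus strand, chr10:99262981-99263280) are shown 5′ to 3′, with the core motif in capitals, because the first holds the only match among the members and the second, of another feedback gene, holds none.
Spry2: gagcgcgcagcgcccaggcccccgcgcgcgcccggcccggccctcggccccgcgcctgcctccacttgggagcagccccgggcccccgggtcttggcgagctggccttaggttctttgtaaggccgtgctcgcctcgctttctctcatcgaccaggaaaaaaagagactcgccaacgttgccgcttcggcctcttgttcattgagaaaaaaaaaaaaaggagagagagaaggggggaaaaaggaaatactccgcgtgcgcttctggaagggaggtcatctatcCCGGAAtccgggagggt
Dusp6: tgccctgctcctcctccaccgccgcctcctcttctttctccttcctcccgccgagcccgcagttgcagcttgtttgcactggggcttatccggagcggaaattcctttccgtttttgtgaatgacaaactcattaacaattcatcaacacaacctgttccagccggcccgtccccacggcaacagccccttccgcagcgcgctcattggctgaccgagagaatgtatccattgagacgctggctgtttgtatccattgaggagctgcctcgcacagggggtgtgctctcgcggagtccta
The match in the Spry2 window begins 33 bases after the start of transcription, on the strand of the gene. It is a match of letters and not a measured binding site, and a window without a match says nothing about the factor.

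The remaining feedback inhibitors were called in both directions. Of 9 genes 4 were higher, beside 23.3% of all tested genes, 3 were lower, beside 23.1%, and 2 were not past the threshold, with a median log2 fold change of 0.08. Dusp5, a nuclear phosphatase of ERK, was at 108, 80.2 and 127 CPM in iRGCs and 21.8, 14.7 and 19.9 CPM in cRGCs (log2 fold change 2.48, SE 0.211, edgeR adjusted p = 0.000205). Il17rd, the membrane inhibitor also named Sef, was higher by 1.18 on the log2 scale (edgeR adjusted p = 0.00122). Dusp9 was at 4.0 to 6.66 CPM in iRGCs and 1.62 to 3.65 CPM in cRGCs, with a log2 fold change of 1.17 (edgeR adjusted p = 0.0776). Its call was lost without iRGC 1, iRGC 2, cRGC 1 or cRGC 2, without the low-count filter and with a replicate block, in a range of adjusted p from 0.0413 to 0.201.

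Spry4, a further Sprouty gene, overlapped between the populations. It was at 13.9, 21.3 and 6.40 CPM in iRGC 1, 2 and 3 and at 6.96, 4.97 and 8.71 CPM in cRGC 1, 2 and 3. Its log2 fold change of 1.01 (SE 0.425, edgeR adjusted p = 0.0924) was called, but became 0.56 without iRGC 2 (adjusted p = 0.354) and was not past the threshold without any single library except iRGC 3, with limma voom or with a replicate block, over a range of 0.0125 to 0.354. In contrast Spry3, at 4.02 to 5.11 CPM in iRGCs and 9.11 to 14.5 CPM in cRGCs, was lower with a log2 fold change of -1.26. Spred3 was lower with -1.02, and Dusp4, a further nuclear phosphatase, with -0.99. The members Spry1, Spry2 and Spred1 thus stood beside family relatives that were lower in the same libraries.

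Etv5, the ETS factor among the members, was 4.46-fold higher in iRGCs. It was at 74.6, 51.7 and 65.1 CPM in iRGC 1, 2 and 3 and at 9.03, 22.3 and 11.6 CPM in cRGC 1, 2 and 3 (chromosome 16, 22381309-22439719). The groups were well apart, and iRGC 2, the highest library for Dusp6, was the lowest iRGC library for Etv5. The log2 fold change was 2.16 (SE 0.319, edgeR adjusted p = 0.000886), and 2.64 without cRGC 2. The log2 ratio of Etv5 to Dusp6 per kilobase was -1.22, -2.49 and -0.79 in iRGCs and -2.52, -1.58 and -2.92 in cRGCs. This ratio overlapped between the populations, and its difference of 0.84, which was 1.33 without iRGC 2 and 0.48 without iRGC 3, had an exact permutation p of 0.2 (0.2 adjusted over 4 ratios).

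Of the other transcriptional targets of ERK, 5 of 7 tested genes were higher in iRGCs, beside 23.3% of all tested genes, and none was lower, beside 23.1%. The median of the list was 1.56 on the log2 scale. Etv1 was at 12.7, 13.3 and 12.6 CPM in iRGCs and 1.12, 4.14 and 1.84 CPM in cRGCs (log2 fold change 2.44, SE 0.464, edgeR adjusted p = 0.00305), and its log2 fold change was 3.13 without cRGC 2. Etv4 was higher by 1.56 on the log2 scale (edgeR adjusted p = 0.00460), so the 3 factors of this ETS group were all higher. Ccnd1 was at 3362, 2649 and 2520 CPM in iRGCs and at 277, 779 and 471 CPM in cRGCs (log2 fold change 2.48, SE 0.329, edgeR adjusted p = 0.000539). The immediate early gene Fos was at 447, 1016 and 320 CPM in iRGC 1, 2 and 3 and at 110, 163 and 156 CPM in cRGCs, with a log2 fold change of 2.06 (SE 0.386, edgeR adjusted p = 0.00287), and 1.42 without iRGC 2. Egr1, the fifth called gene, was named after its values were seen and was also highest in iRGC 2, at 314, 618 and 152 CPM in iRGCs against 117, 140 and 140 CPM in cRGCs. Ier3 and Phlda1 were not past the threshold, and Fosl1 was too rare to be tested.

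Per kilobase of exon, the order of the members was nearly the same in both populations. In iRGCs the mean levels ran from Fgf15 at 428 ± 87.5 CPM per kilobase (SD, n = 3) through Dusp6 (46.9), Spry2 (30.7), Spred1 (24.3), Etv5 (15.6), Fgf9 (15.3), Fgfr1 (8.35), Spry1 (6.31) and Fgfr2 (1.23) to Fgfr3 at 0.667 ± 0.115. Neighbours whose iRGC libraries overlapped were Dusp6 and Spry2, Etv5 and Fgf9, and Fgfr1 and Spry1. In cRGCs the order was Fgf15 at 64.4 ± 31.2, then Dusp6 (16.7), Spred1 (13.9), Spry2 (12.3), Fgf9 (10.2), Fgfr1 (4.14), Etv5 (3.48), Spry1 (1.18), Fgfr2 (0.217) and Fgfr3 at 0.145 ± 0.0506. The overlapping neighbours were Dusp6 and Spred1, Spred1 and Spry2, Fgfr1 and Etv5, and Fgfr2 and Fgfr3. Etv5 changed its place most, from rank 5 in iRGCs, above Fgfr1 in every library, to rank 7 in cRGCs.

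**Figure D4:**
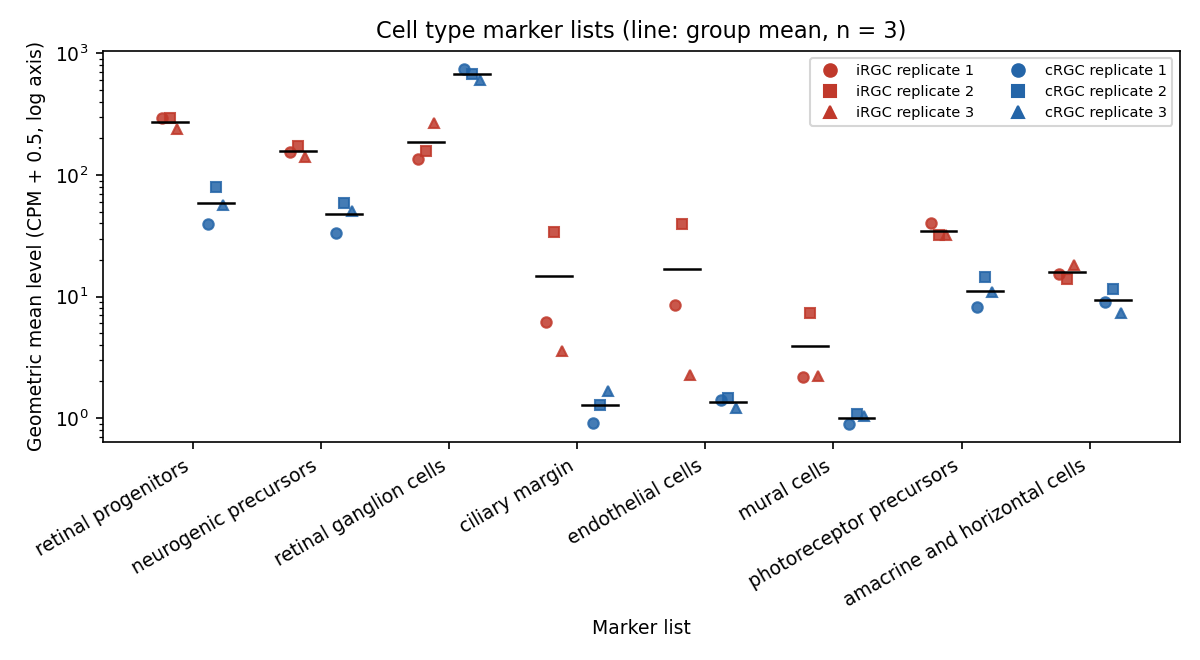
Geometric mean level of 8 marker lists in each library, in CPM with 0.5 added, on a log axis, with a line at the mean of 3 libraries. Progenitor markers are at 240 to 293 in iRGCs and 39.4 to 79.5 in cRGCs, RGC markers show the reverse order, and endothelial and mural markers are highest in iRGC 2.

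Markers of several other cell types moved with the populations, so they are given beside the members. Over all tested genes, 23.3% were called higher in iRGCs and 23.1% lower. All 7 markers of neurogenic precursors were higher in iRGCs, with a median of 1.65 on the log2 scale, summed levels of 1213, 1337 and 1107 CPM in iRGCs and 278, 448 and 418 CPM in cRGCs, and Hes6 as the most abundant. All 5 tested photoreceptor precursor markers of 6 were higher, with a median of 2.1, summed levels of 784, 611 and 582 against 98.3, 194 and 136 CPM, and Otx2 leading. Of 9 amacrine and horizontal cell markers 5 were higher and none was lower, with a median of 0.96, summed levels of 317, 270 and 361 against 151, 179 and 139 CPM, and Tfap2b leading. These 3 lists of retinal cells, like the progenitor list, had all iRGC libraries above all cRGC libraries in their summed levels.

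Markers of endothelial cells, mural cells and the ciliary margin set iRGC 2 apart. Their counts of called genes stand beside 23.3% of all tested genes called higher in iRGCs. Of 10 endothelial markers 6 could be tested and all 6 were higher in iRGCs, with summed levels of 448, 649 and 436 CPM against 88.7, 109 and 71.8 CPM. The most abundant, Kdr, is also known from retinal progenitors and was at 366, 321 and 418 CPM in iRGCs. The defining gene Cdh5 was at 15.3, 81.3 and 0.158 CPM in iRGC 1, 2 and 3 and at 0 in all cRGC libraries. Of 10 mural markers 3 of 5 tested were higher, with summed levels of 135, 277 and 108 against 20.8, 31.2 and 23.0 CPM. The most abundant, Notch3, was at 113, 117 and 83.5 CPM in iRGC 1, 2 and 3 and thus made up much of these sums. The pericyte gene Rgs5 was at 3.76, 93.8 and 2.24 CPM in iRGCs. Ciliary margin markers, with 4 of 5 higher and Ccnd2 the most abundant, summed to 66.8, 251 and 20.6 CPM in iRGCs and 3.08, 5.52 and 9.39 CPM in cRGCs. Endothelial, mural and ciliary margin markers were thus highest in iRGC 2, the library that was also highest for the members Fgfr1, Fgfr3, Spry1 and Dusp6, and for Fgf2, Fgfrl1, Sos2, Spry4, Etv1, Etv4, Fos and Egr1. Their part in those levels was not tested. Without iRGC 2 the log2 fold changes were 0.90 for Fgfr1, 2.05 for Fgfr3, 1.98 for Spry1 and 1.06 for Dusp6, and iRGC 1 still held Cdh5, Gja1 (23.3 CPM) and Ccnd2 (37.6 CPM) above every cRGC library.

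Erythroid markers were also highest in iRGC 2. The counts of this paragraph likewise stand beside 23.3% of all tested genes called higher in iRGCs. Of 8 erythroid markers 4 were tested and higher, led by Hbb-bs, with sums of 12.2, 92.7 and 15.2 CPM in iRGCs and 0, 5.11 and 0.290 CPM in cRGCs, and Hbb-bh1 was at 0 in all libraries. Of 9 microglia markers 8 were tested and 4 were higher, led by Csf1r, with sums of 20.8, 27.1 and 16.7 against 1.12, 4.25 and 2.07 CPM. Of 9 fibroblast markers 3 were tested and 1 was higher, beside 23.3% of all tested genes. The list was led in level by Col1a2, with sums of 22.4, 36.4 and 9.93 against 8.73, 10.4 and 10.2 CPM and Lum at 0. Of the lens markers 1 of 7 was tested, of the pigment epithelium markers 5 of 8, and of the astrocyte and optic stalk markers 1 of 5. None of those tested was called. The sums of these lists stayed between 1.08 and 11.4 CPM in all libraries, with Lim2 and Mip of the lens at 0. Each sum was highest in iRGC 2, at 11.4, 8.07 and 5.47 CPM in the order given.

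Since progenitor markers and FGF genes were both higher in iRGCs, each member was also set against the progenitor markers of its own library, as the log2 of its CPM over their geometric mean. By this measure the 10 members fell into separate patterns. Fgf9 was at -1.87, -2.05 and -1.97 in iRGCs and 0.30, -0.71 and -0.34 in cRGCs, lower in iRGCs by 1.71. Spred1, Fgfr1 and Spry2 had differences of -1.47, -1.28 and -0.96 in the same direction, with no overlap between the populations. For these 4 genes the difference between the populations was thus smaller than that of the progenitor markers. Fgf15 was higher in all iRGC than in all cRGC libraries on this scale, at 2.34, 2.30 and 2.06 in iRGCs and 1.33, 1.86 and 1.84 in cRGCs, a difference of 0.56. These 5 differences each had an exact permutation p of 0.1, the smallest possible, and 0.2 after adjustment over the 10 members. Their size depended on the reference list. With neurogenic precursors in place of progenitors, the differences were 1.08 for Fgf15, -1.18 for Fgf9, -0.95 for Spred1, -0.75 for Fgfr1 and -0.43 for Spry2, each still without overlap.

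The other 5 members overlapped between the populations on the scale of progenitor markers. Fgfr2 did not overlap with neurogenic precursors as the reference, where it was higher in iRGCs by 0.88. Etv5 lay at -1.97, -2.50 and -1.88 in iRGCs and -2.12, -1.83 and -2.30 in cRGCs, a difference of -0.03. Spry1 (0.07) and Fgfr3 (-0.03) also had small differences beside pooled SDs of 0.60 and 0.76. Fgfr2 was higher by 0.35 beside a pooled SD of 0.34, from 0.11 to 0.53 with a library left out. In contrast the sign for Etv5, Spry1 and Fgfr3 turned with single libraries left out. Dusp6 was lower by 0.87 with an exact permutation p of 0.2. A difference that misses the threshold here does not show that a gene followed the markers exactly, since 3 libraries against 3 allow no p under 0.1.

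**Figure D5:**
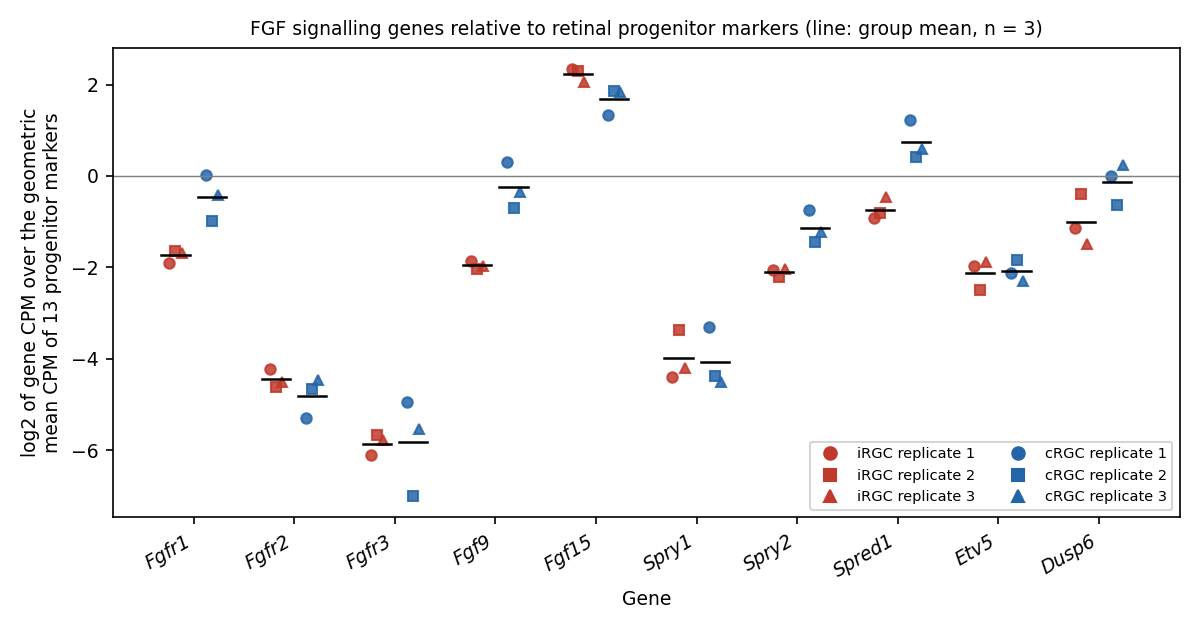
Level of each member relative to 13 retinal progenitor markers of the same library, as the log2 of its CPM over their geometric mean CPM (with 0.5 added to the markers), with a line at the mean of 3 libraries. Fgfr1, Fgf9, Spry2 and Spred1 lie lower in iRGCs than in cRGCs, Fgf15 lies higher, and the other 5 members overlap.

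Among the cRGC libraries, cRGC 1 had the lowest progenitor markers and was also the lowest for Fgfr2, Fgf15, Spry2, Etv5 and Dusp6. It was not the lowest for Fgfr1, Fgfr3, Fgf9, Spry1 or Spred1. Leaving out cRGC 1 gave log2 fold changes of 2.14 for Fgfr2, 2.41 for Fgf15 and 1.91 for Etv5, each still called higher.

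The genes whose levels most resembled those of each member were taken over the 6 libraries, among 11207 protein-coding genes, by Pearson's r of log2 CPM. The 6 points share the contrast between the populations and their makeup of cells, so a high r is a description of these libraries, and 1.07% to 12.8% of the genes had an r over 0.95 with a given member. Fgf15 was most like Tns3 (r = 0.9999), Rad18 and Dll4, the last a Notch ligand of cells leaving the progenitor state. Fgfr2 was most like Nr3c1, Cdc20 and Plk4, of which Cdc20 and Plk4 act in cell division. Etv5 was most like Ednrb, Rdm1 and Myb, and Spry2 was most like Grin2c, Abca5 and Rpa2, the last a subunit of the replication protein that binds single-stranded DNA.

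The remaining members had other neighbours. Fgfr1 was most like Podxl, Dcaf8 and Dock6, Fgfr3 like Enoph1, Ints8 and Txlna, and Fgf9 like Xiap, Pik3c2a and Mib1. Spred1 was most like Mid1, S1pr3 and Pip5k1b, and Spry1 like Sephs2, Cnpy4 and Dync2li1. Dusp6 was most like Gatad2a, Zfp36 and Kdelc1, of which Zfp36 is an immediate early gene. Among the members themselves r ran from 0.770 for Etv5 with Dusp6 to 0.995 for Fgfr2 with Fgf15.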

How the data were processed

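Reads were mapped by the authors with HISAT2 2.1.0 to mm10, and unique reads were counted per gene with HTSeq 0.11.1 (names and versions per the submitters' processing notes). The deposited values are raw counts per Ensembl gene, 1 table per library. The strand setting is not given in the sources used here. HTSeq tallies that name no gene were left out; reads on no gene were 12.3% to 23.2% of uniquely aligned reads. Symbols and positions came from GENCODE M21 (GRCm38) for 46574 of 47069 genes.

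The test was that of edgeR 4.0.16 under R 4.3.3 (filterByExpr, TMM, quasi-likelihood test, no block, Benjamini-Hochberg over all tested genes, threshold 0.1); the study used DESeq2. The fit was tested on simulated data in which far fewer genes changed than were called here. Measures within a library used counts per kilobase of exon or CPM (0.5 added to marker genes) and exact permutation tests, two-sided. Alternatives were other normalization factors, DESeq2 1.42.0, limma 3.58.1 voom, other filters and thresholds, a replicate block, protein-coding genes alone, each library left out and another reference list. Members and lists were chosen with earlier results of these data known. Named genes are all members and, of each list, up to 4 called genes per direction with the largest fold change at a mean of at least 1 CPM, all tested genes of short lists, the 3 genes most like each member (mean of at least 5 CPM), and each marker list's most abundant gene and genes at 0. Other genes in the text were picked with their values in view. Some single genes of the lists are not reported here.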

Additional observations from a re-analysis of the deposited data

How the results depend on the processing

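All 10 members kept their direction and their call in the 15 alternative fits (edgeR with RLE, upper quartile or no factors, DESeq2, limma voom, other filters, protein-coding genes alone, a replicate block and each library left out). With 1 library left out, log2 fold changes ranged from 0.48 to 0.67 for Fgf9, 0.75 to 0.91 for Spred1, 0.90 to 1.07 for Fgfr1, 1.06 to 1.75 for Dusp6, 1.25 to 1.44 for Spry2, 1.91 to 2.64 for Etv5, 1.95 to 2.36 for Fgfr3, 1.98 to 2.61 for Spry1, 2.14 to 2.83 for Fgfr2 and 2.41 to 3.13 for Fgf15. Over the named pathway genes, 24 calls were lost and 1 was gained, beside 424 pairs of a gene and an alternative with the same call, without a change of direction in any called gene. The replicate numbers did not pair the libraries, since the deviations of same-numbered libraries correlated at -0.014, -0.045 and -0.067, and with a replicate block 10 members, 13 pathway genes and 3316 of all genes were called higher, and 15 pathway genes and 3435 of all genes lower. With a fold change threshold added, 8 members were called, 6 pathway genes in place of 15 were lower, and 1930 genes were higher and 1758 lower in place of 3707 and 3688. Without normalization factors the split over all genes was 5100 higher and 2842 lower. Over all pathway genes, 23 in place of 16 were then called higher and 13 in place of 15 lower. Without iRGC 2, 11 pathway genes were called higher and 15 lower. With neurogenic precursors as the reference in place of progenitors, the members' differences moved to -0.75 for Fgfr1, 0.88 for Fgfr2, -1.18 for Fgf9, 1.08 for Fgf15, -0.43 for Spry2, -0.95 for Spred1, 0.49 for Etv5 and -0.35 for Dusp6, and were 0.50 for Fgfr3 and 0.60 for Spry1; the median log2 fold change of the precursor list is 1.65 and that of the progenitor list 2.38. The biological coefficient of variation was 36.3% with 3 libraries of each population. No exact test over 3 and 3 libraries can give a p under 0.1.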
